A study of Homo sapiens with 6 samples.

Results

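Of 7587 genes with a transcript in both RNA tables, 88 were plentiful in control ME-180 cells, nearly without reads in the ME-180 library labelled p63 knockdown, and low in SiHa cells with a vector. A gene was a member when the ME-180 control held at least 100 counts, the library labelled knockdown at most 3 and the SiHa vector library fewer than 100. Each gene was read at its transcript with the most counts over both ME-180 libraries. Names starting KRT, COL, LAM, ITG, SLC, CXCL, IL1 and TP63 were left out, which removed 8 genes that met the limits, among them IL1RN, IL1A and ITGB6. The members' values in those 3 libraries are therefore a description of how they were chosen. What the rule did not read is the SiHa library with p63 overexpression, although it is compared with the vector library, which the rule did read.

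The groups used are ME-180 knockdown and ME-180 control (column names shp63 and plko), and SiHa p63 overexpression and SiHa vector, with 1 RNA library per group. A p63 ChIP library of ME-180 and its input were not used here. ME-180 and SiHa are human cervical cancer cell lines; the sources used here give no clone, hairpin sequence or p63 isoform for the constructs. The tables' rows summed to 10046579 counts in the library labelled knockdown, 10804272 in the ME-180 control, 13690639 with p63 overexpression and 14207637 with vector. With 1 library per group no test of a condition is possible. Intervals below are exact 95% intervals that cover counting error only. In these bulk libraries, fewer cells of a type and less RNA per cell cannot be told apart.

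TP63 encodes p63, a relative of p53 that maintains the basal layer of stratified squamous epithelia. It binds enhancers of keratin, desmosome and protease genes and helps to hold cells in the squamous lineage. Squamous cells also carry a set of surface proteases and junction proteins that mesenchymal cells usually lack.

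The library labelled knockdown stood apart from its control in more than TP63. TP63 itself had 6 counts in the library labelled knockdown and 5619 in the control, and 179 with p63 overexpression against 7 with vector. Over the 7587 genes, Pearson's r of log2(CPM + 1), where CPM is a gene's counts over the library's summed counts, times 1000000, was 0.810 between the library labelled knockdown and the control and 0.892 between the library labelled knockdown and SiHa vector. Reads of basal squamous markers summed to 35.8 CPM in the library labelled knockdown and 70952 in the control over the 4 of 6 markers with a row, and mesenchymal markers to 53.9 and 2.41 CPM over 3 of 5. Simple epithelial markers with a row, KRT8 and KRT18, summed to 131 CPM in the library labelled knockdown and 2710 in the control. Neural markers with a row went opposite ways, TUBB3 with 18.6 CPM in the library labelled knockdown and 34.0 in the control, and KIF1A with 105 and 0.0926 CPM. Melanocyte markers summed to 5.97 and 25.3, and immune markers to 3.78 and 50.5, with MLANA and CD3E at 0 in the library labelled knockdown. In SiHa each marker was read at its transcript with the most SiHa counts. The basal squamous sum, over 5 markers with a row, was 8925 CPM with p63 overexpression and 4154 with vector. KRT17 alone gave 8829 and 4134 of it. The mesenchymal sum was 15.2 and 27.7 CPM over 4 markers, and the simple epithelial sum 4574 and 2519 over 4. These sums thus cover more markers than those of ME-180. The neural sum was 359 and 223 CPM, where TUBB3 gave 348 and 211, and KIF1A went the other way with 10.4 and 12.2. The melanocyte sum was 3.29 with p63 overexpression and 4.43 with vector, and the immune sum 33.3 and 28.4. The part of any such difference in cell state or identity in the members' values was not tested.

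Of 4365 genes with at least 100 counts in the ME-180 control, 152 had at most 3 in the library labelled knockdown, or 3.48%. Low levels in SiHa were common in these 152 genes: 96 of them, or 63.2%, had fewer than 100 counts in SiHa vector. Among the 4213 genes that kept more than 3 counts in the library labelled knockdown, 398 did, or 9.45%. In the other direction, 99 genes had at least 100 counts in the library labelled knockdown and at most 3 in the control. A further 28 genes met the ME-180 limits without a row in the SiHa table and were not analysed here, among them MACC1 and SCNN1G.

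Members ranged widely in the ME-180 control and in SiHa, and had at most 3 counts in the library labelled knockdown, as the limits require. Their counts ran from 0 to 3 in the library labelled knockdown and from 106 to 9585 in the control, with medians of 0 and 257.5. In SiHa they ran from 0 to 156 with p63 overexpression and from 0 to 96 with vector, with medians of 6 and 5. The library labelled knockdown held no read for 54 members and 1 to 3 reads for 34. SiHa vector held at most 3 reads for 34 members and 4 to 99 for 54. Of the 88 members, 43 had 1 transcript in the tables and 45 had several, whose reads overlap. No other transcript of a member reached 100 counts in SiHa vector, and 8 other transcripts, of AMPD3, BCO2, ETV4, GALNT14 and SEPP1, had more than 3 counts in the library labelled knockdown, at most 9.

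**Figure D1:**
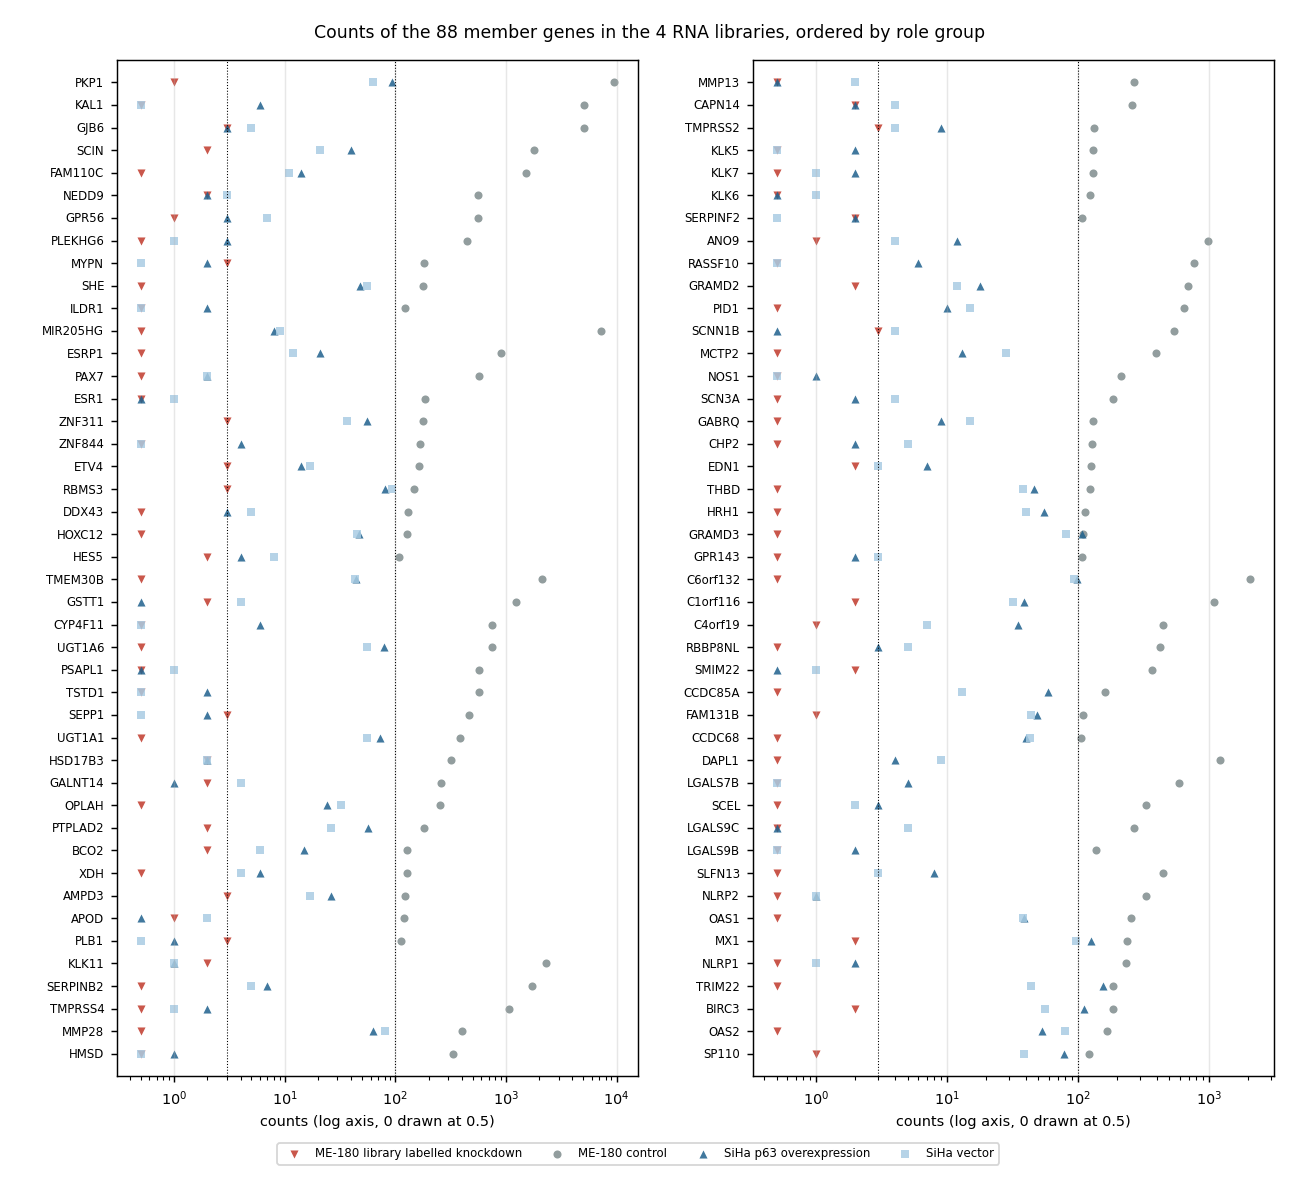
Counts of each of the 88 members (rows, grouped by role) in the 4 RNA libraries on a log axis, with 0 drawn at 0.5 and dotted lines at 3 and 100 counts. Grey circles (ME-180 control) lie at 106 to 9585, red triangles (library labelled knockdown) at 0 to 3, and the SiHa symbols at 0 to 156.

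The limits cut through a continuum. Just inside the control limit were CCDC68, GPR143 and SERPINF2 with 106, 107 and 108 counts, and just outside it CPA4, CYP4F3 and ZNF808 with 99 each. GJB6, SCNN1B and SEPP1 had 3 counts in the library labelled knockdown, and FXYD3, ARHGDIB and KLK10, with 4, were just outside. MX1, C6orf132 and RBMS3 were inside with 96, 93 and 93 counts in SiHa vector, and PHYHIP, SP100 and HORMAD1 just outside with 105, 109 and 111. In SiHa, 2 of the genes just outside stood well apart between libraries: ARHGDIB had 86 counts with p63 overexpression against 5 with vector, and CPA4 had 85 against 23.

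In the SiHa library with p63 overexpression 3 of the 88 members were higher than with vector by the size rule, and 0 were lower. The rule asks for a ratio of at least 2-fold on CPM + 1, which shrinks the ratio of low genes, and at least 1 CPM in a SiHa library. Only 36 members reached 1 CPM in either SiHa library, so 3 of 36, or 8.33%, were called higher. That floor can be met in the overexpression library alone. C4orf19 and CCDC85A, 2 of the 3, met it only there, with 0.493 and 0.915 CPM with vector, as did FAM110C, ESRP1, GRAMD2 and BCO2. PID1, GABRQ and MCTP2 met it only with vector. The share is thus not independent of the overexpression values. Among all 5649 genes at that level 0.584% were called higher and 0.779% lower. Among the 1398 of them with fewer than 100 vector counts, which share the members' limit, 2.07% were called higher and 1.79% lower.

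TRIM22, an interferon-induced ubiquitin ligase of the tripartite motif family (transcript NM_001199573.1), had 0 counts in the library labelled knockdown and 186 in the ME-180 control, and 156 counts with p63 overexpression against 44 with vector. The ratio of scaled counts in SiHa was 3.68 (95% interval 2.62 to 5.27). Its overexpression level came to 66.2% of the ME-180 control's CPM, against 18.0% with vector. CCDC85A, a coiled-coil protein gene (NM_001080433.1), had 0 counts in the library labelled knockdown and 160 in the control, and 59 with p63 overexpression against 13 with vector, a ratio of 4.71 (2.55 to 9.36). C4orf19 (NM_001104629.1), a little characterised gene, had 1 count in the library labelled knockdown and 448 in the control, and 35 with p63 overexpression against 7 with vector, a ratio of 5.19 (2.27 to 13.8). C4orf19 thus stood at 6.17% of the ME-180 control's CPM with p63 overexpression and CCDC85A at 29.1%, while their vector levels were 1.19% and 6.18%. The authors' deposited log2 fold changes in SiHa were 1.92 for TRIM22, 2.26 for CCDC85A and 2.39 for C4orf19. Their adjusted p-values are not read here, as each group has 1 library.

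**Figure D2:**
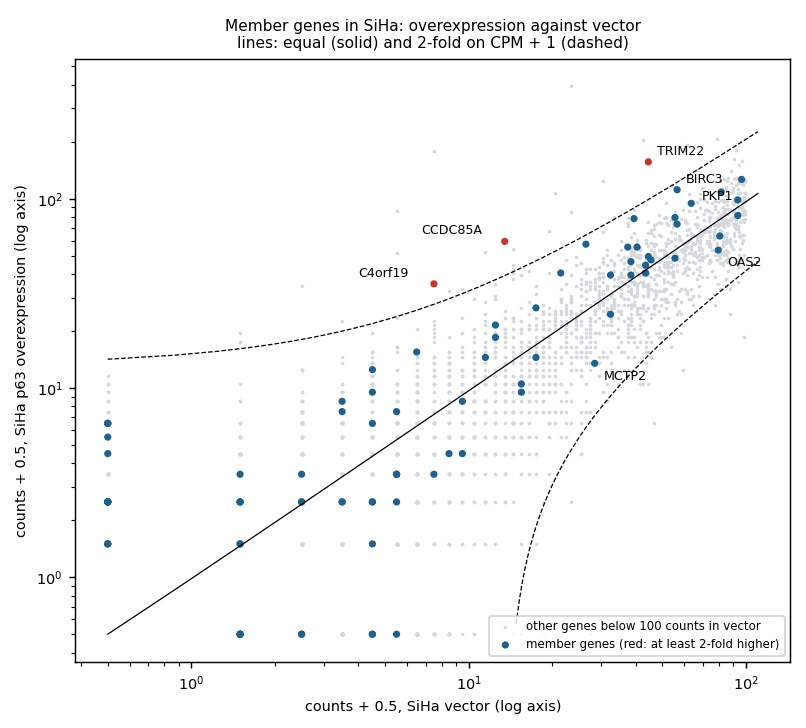
Counts plus 0.5 with p63 overexpression (vertical) against vector (horizontal), both on log axes, for the 88 members (blue and red) and the other genes with fewer than 100 vector counts (grey). TRIM22, CCDC85A and C4orf19 (red) lie above the dashed line of 2-fold on CPM + 1, and no member lies below the lower one.

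A looser reading asks only that the counting interval of the plain count ratio lies on one side of 1. By it 14 members were higher with p63 overexpression and 2 lower. Over all 7587 genes the same reading gave 11.7% higher and 18.4% lower, and over the 3336 genes with fewer than 100 vector counts 5.4% higher and 9.2% lower. Intervals that cover counting error alone thus excluded 1 for many genes of every kind, and these calls compare the libraries, not the conditions. Besides the 3 genes above, the higher members were PTPLAD2, SP110, BIRC3, SCIN, PKP1, UGT1A6, GRAMD3 and MX1, and KAL1, RASSF10 and CYP4F11, each with 6 counts against 0. The lower members were MCTP2 and OAS2. As every SiHa row holds a read, the 15 members with 0 vector counts, among them KAL1, RASSF10 and CYP4F11, could not be called lower. Likewise the 9 members with reads only with vector could not be called higher. Of the 14 higher members 9 have 1 transcript in the SiHa table, and 2 of the other 5, PKP1 and GRAMD3, were higher in every transcript. Counting any transcript, 16 members were higher, adding ESRP1 and PLEKHG6, and 3 lower, adding RBMS3. PLEKHG6 rests on 9 counts against 1. A gene with several transcripts can be called by any of them. No such count was made over all genes, so the shares above do not match it.

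**Figure D3:**
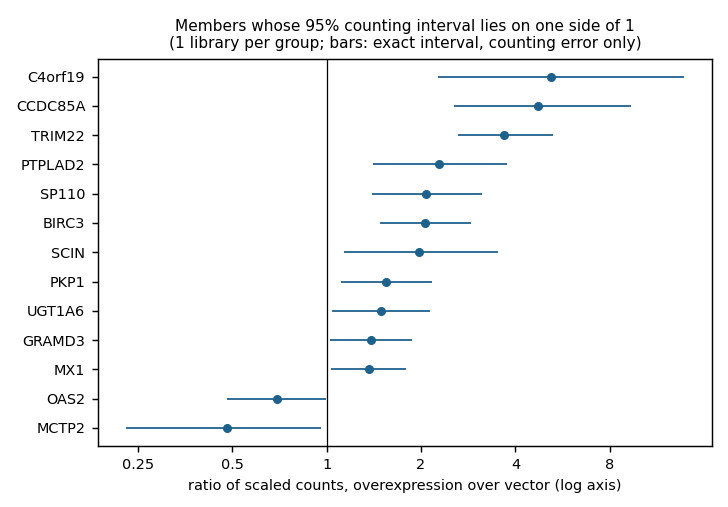
Ratio of scaled counts, p63 overexpression over vector, on a log axis with exact 95% intervals for the 13 members with a vector count whose interval lies on one side of 1. C4orf19, CCDC85A and TRIM22 are highest at 5.19, 4.71 and 3.68, and OAS2 and MCTP2 are below 1 at 0.696 and 0.482.

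Over the whole set the shift in SiHa was small. The median log2 ratio of p63 overexpression over vector, on CPM + 1, was 0.10 over the 88 members. It was 0.29 over the 36 members at 1 CPM or more, a level that some met only with p63 overexpression. The same medians were -0.05 over all 7587 genes and -0.10 over the 1398 genes with fewer than 100 vector counts and 1 CPM or more. Summed over members, reads came to 152 CPM with p63 overexpression and 113 CPM with vector, and without the 3 genes called higher to 134 and 109 CPM. Over all 3336 genes below 100 vector counts the sums were 4623 and 4812 CPM. The 88 members summed to 6040 CPM in the ME-180 control. Genes that met the same limits except the one in SiHa, 51 genes with at least 100 vector counts, had a median log2 ratio of 0.12, and 1 gene, or 1.96%, was called higher (EHF). By the looser reading 35.3% of those 51 were higher and 9.8% lower.

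Genes that were low in SiHa vector but kept more than 3 counts in the library labelled knockdown give a nearer comparison. Of 305 such genes at 1 CPM, with at least 100 control counts, 0.984% were called higher and 1.31% lower by the size rule, and of all 378 such genes 8.47% were higher and 14.6% lower by the looser reading. Over members and these genes combined, 1.76% were called higher and 1.17% lower by the size rule, and 9.87% and 12.2% by the looser reading. With 1 library per group these shares have no test.

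Set beside all genes of like vector counts, members had higher medians in the upper ranges and close ones in the lower. With 20 to 49 vector counts, 12 of 15 members had more CPM with p63 overexpression, with a median log2 ratio of 0.24 against -0.14 over all genes in that range. With 50 to 99, 7 of 11 did, with medians of 0.36 and -0.13. With 0 to 3 vector counts, 26 of 34 members had more CPM with p63 overexpression, and the medians were 0.10 over members and 0.10 over all genes. With 4 to 19, 11 of 28 did, with medians of -0.15 and -0.16. The ratio of summed scaled counts was 2.63 (1.72 to 4.09) over members against 1.73 over all genes with 0 to 3 vector counts. With 4 to 19 it was 1.37 (1.14 to 1.64) against 0.917. The members' sums in that range, 290 and 220 counts, include 2 genes called higher above. These are C4orf19 with 35 against 7 and CCDC85A with 59 against 13. This ratio is thus not read as a shift of the range, whose median was below 0. In the lowest range 15 of the 34 members had 0 vector counts and, as every SiHa row holds a read, could only be higher. Nothing is therefore read from the counts and ratios of that range. The intervals pool different genes and cover counting error only, and the ranges use the vector counts that the selection read.

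Members silent in SiHa stayed near 0 with p63 overexpression. Of the 34 members with at most 3 vector counts, 27 had at most 3 with p63 overexpression as well, and the highest of the 34 had 8. Low vector counts were a limit of the selection. The matching share over all 1133 genes with at most 3 vector counts was not computed, so nothing particular to members is read from this. The SiHa table has 0 rows without a read in either library, so each of the 15 members with 0 vector counts had to have a read with p63 overexpression, and nothing is read from that. Over the 64 members with reads in both SiHa libraries, 41 had more CPM with p63 overexpression and the median log2 ratio was 0.10, against -0.04 over the 6783 genes with reads in both. The median member stood at 1.24% of its ME-180 control CPM with p63 overexpression and at 1.10% with vector, with tables scaled separately by their totals. With p63 overexpression 40 members were under 1% and 20 over 10%, against 43 and 19 with vector.

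**Figure D4:**
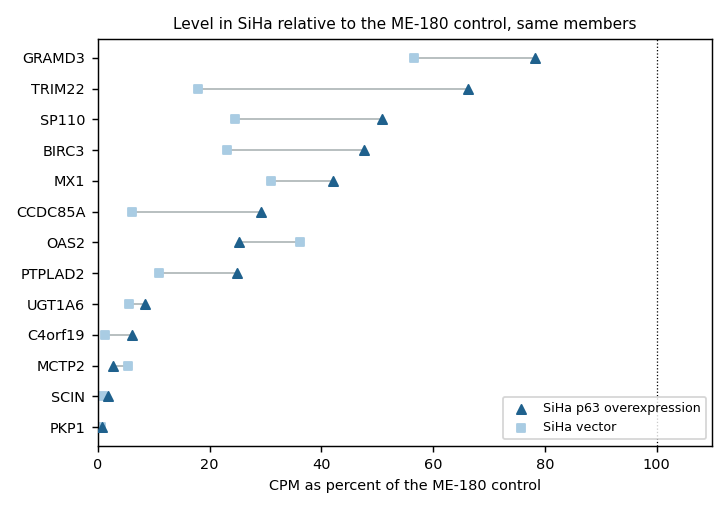
CPM in SiHa as a percent of the ME-180 control for the same 13 members, with triangles for p63 overexpression and squares for vector. GRAMD3 and TRIM22 reach 78.2% and 66.2% with p63 overexpression, while PKP1 and SCIN stay at 0.774% and 1.75%.

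Junction, adhesion and cytoskeleton genes made up 11 of the members. PKP1, a plaque protein that anchors keratin filaments in desmosomes (NM_001005337.2), had 1 count in the library labelled knockdown and 9585 in the control. In SiHa it had 94 counts with p63 overexpression and 63 with vector, a ratio of 1.55 (1.11 to 2.17). The other PKP1 transcript in the tables, NM_000299.3, had 3 counts in the library labelled knockdown and 9232 in the control, and 111 with p63 overexpression against 35 with vector, a ratio of 3.29 (2.23 to 4.96). That transcript passes the size rule where the chosen one does not, and the reads of both overlap. GJB6, a connexin of gap junctions in stratified epithelia, had 3 counts in the library labelled knockdown and 5051 in the control, and 3 with p63 overexpression against 5 with vector. KAL1, which encodes the matrix glycoprotein anosmin, had 0 and 5096 counts in ME-180, and 6 counts against 0 in SiHa. With the 0 set to 3 counts the fold was 2.08. The lower 95% limit of 1.22 is that of 6 against 0, not of this fold. SCIN, an actin-severing protein of the gelsolin family, had 2 and 1808 counts in ME-180, and 40 with p63 overexpression against 21 with vector (ratio 1.98, 1.14 to 3.53). These 4 genes thus showed large losses in ME-180 with SiHa levels under 2% of the control in either library. NEDD9, a scaffold of focal adhesion signalling, GPR56, an adhesion receptor, PLEKHG6, and ILDR1, a protein of tricellular junctions, had 123 to 560 control counts and at most 7 in SiHa. FAM110C had 0 and 1524 counts in ME-180, and 14 against 11 in SiHa. MYPN, a sarcomere protein in muscle, and SHE complete the group, with SHE at 48 counts with p63 overexpression and 55 with vector.

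Of a list of 12 desmosome and plaque genes, 3 had rows in both tables and the library labelled knockdown was lower by 2-fold or more on CPM + 1 for all 3, with PKP1 the only member. Over all 6406 genes at 1 CPM in ME-180, 18.6% were lower by that rule and 28.6% higher. The list of 21 tight and gap junction genes had 10 rows, of which 9 were lower, and GJB6 was a member. In SiHa 0 of 3 desmosome genes passed the size rule (median log2 ratio 0.58), and of 8 junction genes at 1 CPM 0 were higher and 1 lower (median 0.03). The lower one was GJA1, a connexin, with 163 counts with p63 overexpression against 378 with vector. In the list of 28 guidance genes, which holds KAL1, 7 had rows, of which 3 were lower and 1 higher in the library labelled knockdown, and 0 of 6 passed in SiHa (median -0.11).

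Proteases and their inhibitors numbered 12, and none passed either reading in SiHa. Kallikreins, serine proteases secreted by squamous epithelia, gave 4 members. KLK11 had 2 counts in the library labelled knockdown and 2301 in the control, and 1 in each SiHa library. KLK5, KLK6 and KLK7, which in the epidermis help to cut the links between shedding cells, had 0 counts in the library labelled knockdown and 131, 124 and 131 in the control. Their SiHa counts were 2, 0 and 2 with p63 overexpression against 0, 1 and 1 with vector, so the whole group was silent in SiHa. KLK10, just outside the limits, had 4 counts in the library labelled knockdown and 2926 in the control, and 16 with p63 overexpression against 15 with vector. In the RefSeq gene order KLK5, KLK6 and KLK7 are adjacent, with 3 coding genes between KLK7 and KLK11.

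SERPINB2, a plasminogen activator inhibitor, had 0 counts in the library labelled knockdown and 1708 in the control, and 7 with p63 overexpression against 5 with vector. TMPRSS4, a membrane serine protease, had 0 and 1064 counts in ME-180 and 2 against 1 in SiHa. Its relative TMPRSS2 had 0.299 CPM in the library labelled knockdown and 12.2 CPM in the control, and 9 counts with p63 overexpression against 4 with vector. The group was thus near 0 outside the ME-180 control, with 1 exception. MMP28, a metalloproteinase of epithelia, had 0 and 403 counts in ME-180, but 63 with p63 overexpression and 80 with vector in SiHa (ratio 0.817, 0.578 to 1.15). The collagenase MMP13, the calpain CAPN14, SERPINF2, which inhibits plasmin, and HMSD had 108 to 334 control counts and at most 4 in either SiHa library. The list of 33 proteases and inhibitors had 19 rows, with 13 lower and 1 higher in the library labelled knockdown, and 0 of 10 past the rule in SiHa (median -0.14).

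Squamous and galectin genes gave 5 members, all with 0 reads in the library labelled knockdown. DAPL1 had 1208 control counts, and 4 with p63 overexpression against 9 with vector. SCEL, sciellin of the cornified envelope, had 330 control counts, and 3 against 2 in SiHa. LGALS7B, a galectin of stratified epithelia, had 591 control counts, and 5 against 0 in SiHa, an interval from 0.951 upwards. LGALS9C and LGALS9B had 270 and 138 control counts, and 0 against 5 and 2 against 0 in SiHa. Taken alone, none of the 5 differed in SiHa beyond counting error, and all their SiHa counts were at most 9. LGALS7B has the near-identical copy LGALS7, and LGALS9B and LGALS9C are near-identical to each other and close to LGALS9, so reads may be split among copies. In SiHa LGALS7 had 8 counts with p63 overexpression against 2 with vector, the same direction as LGALS7B. Transcripts of LGALS9 went both ways, with 11 against 18 and 16 against 9. The list of 45 squamous differentiation genes had 17 rows, of which 15 were lower in the library labelled knockdown and 6 were members (KLK11, SERPINB2, SCEL, KLK5, KLK7 and KLK6). In SiHa 0 of its 7 genes at 1 CPM passed the rule, and none of the 7 was a member. Their median of 0.71 is the value of ALOX12B, with 23 counts with p63 overexpression against 9 with vector. ALOX12B met the floor only with p63 overexpression, so this median describes neither the members nor the whole list.

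Innate immune genes were the group with the most reads in SiHa, with 574 counts with p63 overexpression and 357 with vector over 9 genes. By the looser reading 4 were higher (TRIM22, SP110, BIRC3 and MX1) and 1 lower (OAS2). SP110, a nuclear body protein induced by interferon, had 1 count in the library labelled knockdown and 121 in the control, and 78 with p63 overexpression against 39 with vector, a ratio of 2.08 (1.40 to 3.13). BIRC3, an inhibitor of apoptosis in NF-kB signalling, had 2 and 184 counts in ME-180, and 111 against 56 in SiHa, a ratio of 2.06 (1.48 to 2.89). MX1, an antiviral GTPase, had 2 and 236 counts in ME-180, and 126 against 96 in SiHa, a ratio of 1.36 (1.04 to 1.80). The intervals of both other MX1 transcripts held 1, with 89 counts with p63 overexpression against 84 with vector (ratio 1.10) and 117 against 94 (1.29). OAS1 and OAS2 are antiviral oligoadenylate synthetases. OAS1 had 0 and 254 counts in ME-180, and 39 against 38 in SiHa (ratio 1.07, 0.664 to 1.71). OAS2 had 0 and 166 counts in ME-180, and 53 with p63 overexpression against 79 with vector (0.696, 0.482 to 0.999). The other OAS2 transcript, NM_002535.2, went the other way, with 69 counts with p63 overexpression and 51 with vector (1.40, 0.964 to 2.06), so the call of OAS2 as lower rests on the chosen transcript. NLRP1 and NLRP2, sensors of the inflammasome family, and the ribonuclease SLFN13 had 234, 331 and 444 control counts, 0 in the library labelled knockdown, and at most 8 in SiHa. The other transcript of BIRC3, with reads that overlap the chosen one's, had 45 counts with p63 overexpression and 44 with vector (1.06, 0.685 to 1.65).

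The interferon-induced list of 29 genes had 12 rows, of which 8 were lower in the library labelled knockdown and 4 were members. In SiHa 1 of its 10 genes at 1 CPM was higher, TRIM22, and 0 lower, with a median log2 ratio of 0.05. The inflammation list of 37 genes had 25 rows, with 13 lower and 1 higher in the library labelled knockdown and BIRC3 as its member. In SiHa 1 of its 20 genes at 1 CPM was higher and 6 lower (median -0.32), so BIRC3, at 0.88, lay above that list's median.

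Metabolism and detoxification genes were the largest group, with 17 members. GSTT1, a glutathione transferase, had 2 counts in the library labelled knockdown and 1235 in the control, and 0 with p63 overexpression against 4 with vector. TMEM30B, a subunit of lipid flippases, had 0 and 2142 counts in ME-180, and 44 against 43 in SiHa. CYP4F11, a cytochrome of fatty acid hydroxylation, had 0 and 748 counts in ME-180, and 6 against 0 in SiHa. PTPLAD2, a dehydratase of very long chain fatty acid synthesis, had 2 and 181 counts in ME-180, and 57 with p63 overexpression against 26 with vector, a ratio of 2.28 (1.41 to 3.77). Of those with a vector count and an interval above 1, PTPLAD2 had the highest ratio, and TMEM30B was level between the SiHa libraries. UGT1A6 and UGT1A1, glucuronosyltransferases, had 742 and 388 control counts and 0 in the library labelled knockdown. In SiHa UGT1A6 had 79 counts against 55 (ratio 1.49, 1.04 to 2.14) and UGT1A1 73 against 56 (1.35, 0.942 to 1.95). Transcripts of the UGT1A locus share their last exons, so these counts overlap. SEPP1, a selenium carrier, HSD17B3, a steroid dehydrogenase, XDH, xanthine dehydrogenase, BCO2, which cleaves carotenoids, and AMPD3, an AMP deaminase, had 123 to 467 control counts and at most 26 in SiHa. OPLAH, of the glutathione cycle, had 24 counts with p63 overexpression and 32 with vector. PSAPL1, TSTD1, GALNT14, APOD, a lipocalin, and PLB1 had 112 to 576 control counts and at most 4 in SiHa. The list of 32 retinoid, steroid and detoxification genes had 18 rows, with 12 lower and 2 higher in the library labelled knockdown, and 0 of 14 past the rule in SiHa (median 0.01).

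Channel, receptor and signalling genes gave 15 members, 0 past the size rule in SiHa. SCNN1B, the beta subunit of the epithelial sodium channel, had 3 counts in the library labelled knockdown and 542 in the control, and 0 with p63 overexpression against 4 with vector. The alpha subunit SCNN1A, transcript NM_001159576.1, had 3 and 335 counts in ME-180 but 871 with p63 overexpression and 785 with vector, which put it outside the members. SCNN1D, the delta subunit, had 578 counts in the library labelled knockdown and 122 in the control, and 115 with p63 overexpression against 170 with vector. The subunits thus went different ways in ME-180 and differed in SiHa, and another SCNN1A transcript had 4 counts in the library labelled knockdown. ANO9, of the anoctamin channel and scramblase family, had 1 and 991 counts in ME-180, and 12 against 4 in SiHa (ratio 3.11, 0.944 to 13.2). RASSF10 had 0 and 765 counts in ME-180, and 6 against 0 in SiHa. MCTP2, a membrane protein with calcium-binding domains, had 0 and 393 counts in ME-180, and 13 with p63 overexpression against 28 with vector (0.482, 0.229 to 0.961). MCTP2 had the lowest ratio of any member with an interval on one side of 1. GRAMD3 had 0 and 109 counts in ME-180, and 108 with p63 overexpression against 81 with vector (1.38, 1.03 to 1.87), the members' highest share of the control level. HRH1, a histamine receptor, and THBD, thrombomodulin, had 114 and 124 control counts and between 38 and 55 in SiHa. EDN1, endothelin, NOS1, the neuronal nitric oxide synthase, SCN3A, a sodium channel, CHP2 and GPR143 had 107 to 215 control counts and at most 7 in SiHa. GRAMD2, PID1 and GABRQ, a GABA receptor subunit, had 130 to 695 control counts and 9 to 18 in SiHa.

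Gene regulation members numbered 11, and none passed either reading in SiHa at its chosen transcript. MIR205HG, the host transcript of miR-205, had 0 counts in the library labelled knockdown and 7291 in the control, and 8 with p63 overexpression against 9 with vector. It had the second most control counts of all members, and SiHa overexpression did not separate from vector (ratio 0.922, 0.310 to 2.69). The mature arms of its microRNA are shown because miR-205 is known in epithelial cells to bind the transcripts of ZEB1 and ZEB2. Both sequences are from RefSeq (GRCh38.p14) with the seed, bases 2 to 8, in capitals, at chr1:209432166-209432187 and chr1:209432203-209432223 on the plus strand.
hsa-miR-205-5p: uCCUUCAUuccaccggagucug
hsa-miR-205-3p: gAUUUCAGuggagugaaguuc
The mature microRNA was not measured in these libraries, and the 2 seeds differ. ZEB1 and ZEB2 had 179 and 223 counts in the library labelled knockdown against 1 and 1 in the control. In SiHa the same ZEB1 transcript, NM_001174096.1, had 59 counts with p63 overexpression against 61 with vector. ZEB2 had 49 against 120, beside 8 against 9 for MIR205HG. Other ZEB1 transcripts in SiHa ran from 61 against 65 to 39 against 64.

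ESRP1, a splicing factor of epithelial cells, had 0 counts in the library labelled knockdown and 902 in the control, and 21 with p63 overexpression against 12 with vector (ratio 1.82, 0.853 to 4.05). Another of its transcripts, NM_001122825.1, had 23 against 11 (2.17, 1.02 to 4.93). PAX7, a factor of muscle stem cells, had 0 and 571 counts in ME-180 and 2 in each SiHa library. ESR1, the oestrogen receptor, had 0 and 185 counts in ME-180 and 0 against 1 in SiHa. Those 3 regulators were thus far below their ME-180 control level in either SiHa library. ZNF311 had 55 counts with p63 overexpression and 37 with vector (1.54, 0.999 to 2.41), and HOXC12, a homeobox gene, 47 against 45. RBMS3, an RNA-binding protein, had 81 against 93 (0.904, 0.663 to 1.23). Its transcripts NM_001003793.2 and NM_001003792.2 were lower, at ratios of 0.593 (0.419 to 0.832) and 0.706 (0.508 to 0.975). ETV4, an ETS factor, HES5, a Notch target, ZNF844 and DDX43 had 109 to 167 control counts and at most 17 in SiHa. The list of 28 epithelial transcription factors had 10 rows, of which 8 were lower in the library labelled knockdown and 0 were members. In SiHa 2 of its 6 genes at 1 CPM were higher, TP63 itself and EHF, with 545 counts with p63 overexpression against 257 with vector. In the list of 28 epithelial surface genes, which holds TMPRSS4 and ESRP1, 7 of 10 with rows were lower in the library labelled knockdown and 0 of 6 passed in SiHa (median 0.29). The list of 27 growth factor genes held no member, with 9 of 15 lower in the library labelled knockdown and 0 of 11 past the rule in SiHa (median 0.05).

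The 8 little characterised members hold 2 of the 3 genes called higher, C4orf19 and CCDC85A. C6orf132 had 0 counts in the library labelled knockdown and 2070 in the control, and 98 with p63 overexpression against 93 with vector. C1orf116 had 2 and 1089 counts in ME-180, and 39 against 32 in SiHa. FAM131B and CCDC68 had 109 and 106 control counts, and 49 against 44 and 40 against 43 in SiHa. RBBP8NL and SMIM22 had 421 and 369 control counts and at most 5 in SiHa. Apart from the 2 called genes, no member of this group differed in SiHa beyond counting error.

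Members lie near one another at several places in the RefSeq gene order. Pairs with at most 5 coding genes between them numbered 12, and several are of the same gene family. No matching count was made over all genes, so whether members lie closer than other genes was not tested. Among them were OAS1 with OAS2, SERPINB2 with HMSD, UGT1A6 with UGT1A1, and MX1 next to TMPRSS2. GALNT14, CAPN14 and XDH follow each other with 0 and 1 coding genes between them. MX1 and TMPRSS2 both had more counts with p63 overexpression, at ratios of 1.36 (1.04 to 1.80) and 2.33 (0.652 to 10.4).

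Promoter windows of 250 bases before to 50 after the start were taken from RefSeq (GRCh38.p14), where 65 of the 88 members matched 101 windows. A p53 family site, made of cores CATG, CAAG or CTTG paired at a fixed distance, and the other motifs were searched on both strands. The p53 family site was found in 3 member windows, or 2.97%, against 2.07% of all 35116 windows. The matches were in SEPP1 (CATGgcagcaCTTG) and in overlapping windows of KLK7 (CAAGtcggaaCTTG), with the cores in capitals. The AP-1 motif TGANTCA was in 12.9% of member windows against 7.71% of all, and AGGAAG, a core bound by ETS factors such as ELF3 and EHF, in 37.6% against 33.6%. The grainyhead motif AACNGGTT was in 1.98% against 1.73%, and TATAAA in 10.9% against 11.5%. Motifs were counted separately and may overlap, and these shares are descriptions that say nothing of binding.

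Windows of 5 members that were higher with p63 overexpression by the looser reading, chosen after their values were seen, are printed to show the sequence around their starts, with AGGAAG or its reverse complement CTTCCT in capitals where present. They lie at chr4:37583983-37584282 on the plus strand for C4orf19, chr2:56183740-56184039 on the plus strand for CCDC85A, chr11:102317234-102317533 on the plus strand for BIRC3, chr2:230225587-230225886 on the minus strand for SP110, and chr1:201283256-201283555 on the plus strand for PKP1.
C4orf19: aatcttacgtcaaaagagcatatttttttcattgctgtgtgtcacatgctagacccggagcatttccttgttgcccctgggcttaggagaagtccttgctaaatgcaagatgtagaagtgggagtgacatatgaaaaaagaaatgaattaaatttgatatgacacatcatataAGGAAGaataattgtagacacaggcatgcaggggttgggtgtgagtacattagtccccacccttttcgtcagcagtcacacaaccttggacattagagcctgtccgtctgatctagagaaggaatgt
CCDC85A: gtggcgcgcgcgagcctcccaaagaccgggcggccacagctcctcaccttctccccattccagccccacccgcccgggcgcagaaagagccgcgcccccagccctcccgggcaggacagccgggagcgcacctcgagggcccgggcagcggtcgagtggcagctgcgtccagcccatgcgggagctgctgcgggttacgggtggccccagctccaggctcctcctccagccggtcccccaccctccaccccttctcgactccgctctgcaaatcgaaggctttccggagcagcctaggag
BIRC3: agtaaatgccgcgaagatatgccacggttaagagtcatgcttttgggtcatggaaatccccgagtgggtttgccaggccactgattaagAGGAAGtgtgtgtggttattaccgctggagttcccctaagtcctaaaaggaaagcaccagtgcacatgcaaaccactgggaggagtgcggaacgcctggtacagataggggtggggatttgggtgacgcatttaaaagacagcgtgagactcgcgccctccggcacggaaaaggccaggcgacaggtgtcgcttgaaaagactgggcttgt
SP110: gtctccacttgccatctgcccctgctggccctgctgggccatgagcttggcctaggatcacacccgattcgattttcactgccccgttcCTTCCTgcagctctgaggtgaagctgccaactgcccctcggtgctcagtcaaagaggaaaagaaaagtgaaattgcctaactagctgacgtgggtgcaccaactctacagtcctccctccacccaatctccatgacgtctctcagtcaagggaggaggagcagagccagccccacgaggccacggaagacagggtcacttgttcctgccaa
PKP1: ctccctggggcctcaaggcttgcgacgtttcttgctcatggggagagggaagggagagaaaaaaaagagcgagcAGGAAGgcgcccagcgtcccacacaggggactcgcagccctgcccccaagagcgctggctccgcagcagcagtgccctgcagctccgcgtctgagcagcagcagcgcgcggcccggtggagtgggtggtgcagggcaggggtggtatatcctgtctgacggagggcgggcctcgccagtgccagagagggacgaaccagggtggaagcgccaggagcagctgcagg
The window of CCDC85A held none of the motifs searched, and each of the other 4 held AGGAAG or CTTCCT once, with no p53 family, AP-1, grainyhead or TATAAA match. C4orf19 and SP110 have a further listed start each, not printed. The unprinted window of C4orf19 held no motif searched, and neither did the 2 windows of UGT1A6, while that of SCIN held TATAAA and no AGGAAG or CTTCCT. A GRAMD3 window held the grainyhead match AACAGGTT with CTTCCT, another AGGAAG, and a further one no motif. An MX1 window held the AP-1 match TGATTCA, another AGGAAG, and a further one no motif. The window of PTPLAD2 held both AGGAAG and CTTCCT. TRIM22 had no window among those matched.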

How the data were processed

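RNA was measured in 4 libraries, 1 per group, with groups from the titles. Per the labels' protocols, RNA was extracted with TRIzol. The submitters' processing notes name TopHat, Cufflinks, DESeq2 and hg19 without roles or versions, while neither the counting method nor its strand setting is stated in the labels. The authors deposited whole-number counts per RefSeq transcript, 15189 in the ME-180 table and 16600 in the SiHa table, of which 13206 are in both. Fold changes deposited by the authors are log2 values and were used only where named, and the authors' p-values and adjusted p-values were not used. The peak list was not used, as no annotation of its build was at hand.

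The members, lists and role groups were chosen with earlier results of these data known. Spreadsheet dates standing for gene names (32 and 31 rows) were resolved through RefSeq identifiers. CPM was counts over the summed rows of a table (which may not be the full depth), with a pseudocount of 1 CPM in log2 ratios. Named genes were TP63, members past the size rule, those with most counts in the ME-180 control or SiHa vector, those nearest each limit, list members, and any member described with its role group. Intervals of count ratios were conditional binomial, and a count of 0 was set to 3 counts per library for a fold (0.219 CPM with p63 overexpression, 0.211 with vector). The size rule and intervals were tested on simulated data. Tools were Python 3.11.15, scipy 1.17.1, edgeR 4.0.16 and DESeq2 1.42.0 (scaling factors only), under R 4.3.3. Alternatives varied each limit, the transcript choice, pseudocount, scaling and fold.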

Additional observations from a re-analysis of the deposited data

How the results depend on the processing

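The count of 88 members became 134 with at least 50 control counts, 50 with at least 200, 54 with 0 counts in the library labelled knockdown and 139 with no limit in SiHa vector, and lay between 77 and 125 under the other 6 planned choices. The 3 members higher with p63 overexpression became 7 with a pseudocount of 0.1 or at 1.5-fold, 1 with a pseudocount of 5 or at 3-fold, 8 by the authors' deposited log fold change and 14 by the counting interval. The 0 lower became 1 at 1.5-fold, 1 by the authors' deposited log fold change and 2 by the interval. Scaling by TMM or median-of-ratios factors, which shifts log2 ratios by 0.04, and dropping the 1 CPM floor kept both counts. The median log2 ratio of 0.10 became 0.38 with a pseudocount of 0.1, 0.45 by the authors' deposited log fold change and 0.29 over members at 1 CPM or more.

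Chosen after seeing the data, a selection without the library labelled knockdown gave 466 genes, 6 higher and 4 lower with p63 overexpression and a median of -0.021, so the sign of the median depends on that library. Counting any transcript gave 4 higher, adding PKP1, and 0 lower, and by the interval 16 higher and 3 lower. These counts have no matching share over all genes. The median over members with reads in both SiHa libraries was 0.10. The cause of these changes was not tested. No paired analysis was possible because each group has 1 library. The 52 members under 1 CPM in both SiHa libraries could not be called by the size rule.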
